A study of Mus musculus with 8 samples.

Results

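The genes described here encode the MCM helicase and its loader: Mcm2, Mcm3, Mcm4, Mcm5, Mcm6, Mcm7 and Cdc6, 7 genes, with all probe sets that the array annotation gives to them. These are 9 of the 12488 probe sets on the array, with 2 probe sets each for Mcm3 and Mcm5 and 1 for each other gene. RNA was measured on 8 short-oligonucleotide arrays of mouse neurosphere cells. Neurospheres are floating cultures of neural stem and progenitor cells, here started from separately isolated forebrains of embryonic day 14.5. All cultures carried a bcl2 transgene, bcl2 being an inhibitor of apoptosis, and no culture without it is analysed here; the promoter of the transgene is not given in the sources used here. Dissociated cells grew for 2 days with both compounds at the doses named next (AzaC/TSA), with 150 nM TSA alone, with 500 nM AzaC alone or with neither (untreated). TSA (trichostatin A) inhibits histone deacetylases, and AzaC (5-aza-2'-deoxycytidine) inhibits DNA methyltransferases. The 2 independent experiments gave 1 array per group each, hence 2 arrays in each of 4 groups, and arrays are named here by group and experiment (TSA 1, TSA 2).

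Before a cell can copy its DNA, each replication origin is licensed: the origin recognition complex and Cdc6, with Cdt1, load the ring of Mcm2 to Mcm7 onto DNA as an inactive helicase. Kinases and the partners Cdc45 and GINS later turn the ring into the moving helicase of S phase. In mammals these genes are transcribed in cycling cells under E2F transcription factors, and their products are low in cells that have left the cycle, for which reason MCM proteins serve as markers of proliferating cells, progenitors of the developing brain among them.

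Since E2F binding is the known control shared by these genes, the promoter windows are given first. Of the 7 genes, Mcm2, Mcm3, Mcm5, Mcm6, Mcm7 and Cdc6 were matched in the RefSeq table (build GRCm38.p6) and Mcm4 was not, giving 7 windows of 6 genes, each of 300 bases that run from 250 before the annotated start to 50 after it, and Mcm7 had 2. The E2F words searched, on both strands, were TTTCCCGC, TTTCCCGG, TTTCGCGC, TTTCGCGG, TTTGCCGC, TTTGCCGG, TTTGGCGC and TTTGGCGG. They were present in 5 of the 7 windows and in 5 of the 6 genes (Mcm3, Mcm5, Mcm6, Mcm7 and Cdc6). Over all 32851 windows of the same length 4.51% held a word, and of the 6306 windows of genes tested on the array 7.99% did. The members' windows held 48.7% to 63.3% G and C, against a median of 52.7% over all windows. A match describes letters only. The sequences below show 1 window with overlapping words (Mcm5), 1 with words before and after the start (Mcm7), 1 with a single word (Cdc6) and the 1 gene whose window has none (Mcm2); each reads 5′ to 3′ along the gene, with E2F words in capitals.
Mcm5, chr8:75109259-75109558, plus strand: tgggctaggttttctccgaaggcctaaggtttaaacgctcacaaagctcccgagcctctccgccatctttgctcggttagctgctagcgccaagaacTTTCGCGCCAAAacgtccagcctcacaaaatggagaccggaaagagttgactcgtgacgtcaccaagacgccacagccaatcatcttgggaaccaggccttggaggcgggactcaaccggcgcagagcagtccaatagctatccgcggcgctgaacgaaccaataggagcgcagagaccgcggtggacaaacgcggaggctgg
Mcm7, chr5:138171834-138172133, minus strand: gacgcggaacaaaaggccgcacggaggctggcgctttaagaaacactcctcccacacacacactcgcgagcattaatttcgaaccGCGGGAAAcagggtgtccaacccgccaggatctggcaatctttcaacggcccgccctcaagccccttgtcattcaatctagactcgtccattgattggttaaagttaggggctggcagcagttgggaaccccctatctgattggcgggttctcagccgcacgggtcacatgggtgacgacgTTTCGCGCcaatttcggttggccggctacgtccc
Cdc6, chr11:98907901-98908200, plus strand: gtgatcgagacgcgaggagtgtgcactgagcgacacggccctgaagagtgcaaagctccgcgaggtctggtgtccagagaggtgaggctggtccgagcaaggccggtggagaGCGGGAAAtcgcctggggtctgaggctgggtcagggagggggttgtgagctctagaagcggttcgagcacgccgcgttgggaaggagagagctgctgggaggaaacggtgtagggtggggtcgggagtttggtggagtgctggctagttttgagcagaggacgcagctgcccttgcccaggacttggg
Mcm2, chr6:88898731-88899030, minus strand: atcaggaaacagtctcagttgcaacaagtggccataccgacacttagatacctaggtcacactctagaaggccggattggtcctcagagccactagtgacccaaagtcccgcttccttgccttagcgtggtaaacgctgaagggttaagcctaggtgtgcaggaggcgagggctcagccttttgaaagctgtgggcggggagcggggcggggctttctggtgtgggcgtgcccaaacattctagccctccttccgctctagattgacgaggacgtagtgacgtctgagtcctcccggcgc

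In the Mcm5 window TTTCGCGC and GCGCCAAA overlap, the second of them on the opposite strand, and begin 153 and 149 bases before the start. In Mcm7 the words begin 165 bases before the start and at base 17 after it. The Mcm2 window holds TTTGAA, one of the pair of words searched for the CHR element of late cell cycle genes (TTTGAA and TTCGAA), 70 bases before the start. Of the 6 genes searched, Mcm2 and Mcm7 hold a CHR word, which 19.2% of all windows and 13.9% of the windows of tested genes carry. CCAAT, the box bound by NF-Y, was present in 5 of the 6 genes, all but Cdc6, against 37.4% of all windows and 37.6% of those of tested genes. These counts are of genes and the shares are of windows, so that they are not alike for Mcm7, which had 2 windows. Both Mcm7 windows held CCAAT, and only that shown above held a CHR word.

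Signals are the deposited intensities, which are linear, and each array has a 2%-trimmed mean of 200.1. Signals under 20 were raised to that floor before log2 was taken, and every change and fold is one of mean floored log2 signals. A fall is written with "at least" where both arrays of the lower group were under the floor; with 1 of them under it, the value depends on the floor. Tests covered probe sets with a signal of 50 or more on 2 or more arrays, and a change passed at an adjusted p below 0.05 in limma. Of the 9 member probe sets 8 were tested and that of Mcm6 was not. On the 4 arrays of TSA-exposed cells alone 6 of the 8 would have reached the filter; Cdc6 and the second Mcm5 probe set reached it only with the help of arrays without TSA, so that counts over the tested probe sets are a description. Signals of different probe sets are not compared as levels of expression.

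Median signals of the arrays ran from 59.2 to 72.7, and the ratio of 5′ to 3′ actin control signals, a sign of RNA integrity, ran from 0.29 to 0.39 with TSA and from 0.332 to 0.471 without it, and the part of RNA integrity in the results was not tested. Of the stem and progenitor markers on the array, Nes had 1049 to 3003 and Sox2 2391 to 4830. By its name the Sox2 probe set had relaxed selection rules. Fabp7, Notch1 and Hes1 were also above the filter signal on every array. Pax6, Msi1, Vim, Prom1, Hes5 and Sox1 were under it on some arrays. Vim (21.3 to 56) and Hes5 (12.4 to 93.8) did not enter the tests, and Prom1 had 13.8 and 4.2 in untreated cells. Ptprc, Tal1 and Spi1 of blood cells, Aif1, Itgam and Adgre1 of microglia and macrophages, and Cdh5, Kdr, Tek and Pdgfrb of endothelial cells and pericytes stayed below the filter signal on all arrays. Other markers of these lists reached it on some arrays, with highest signals of 95 for Cd34, 87.1 for Kit and 56.1 for Gata1 (blood), 123.2 for Csf1r and 474.1 for Cd68 (microglia and macrophages) and 97.3 for Pecam1 (endothelium). Cd68 had 166.9 to 474.1 on TSA-exposed arrays, against 30.0 to 53.0 on the others. Markers of cycling cells moved with TSA: summed over 9 markers on the array they had 391.5 to 568.9 on the 4 TSA-exposed arrays, against 4858 to 7032 on the 4 others. In bulk RNA fewer cells of a type and less RNA per cell cannot be told apart.

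Cdc6, the ATPase that joins the origin recognition complex to load the ring, had signals of 2.7 and 31.4 in AzaC/TSA, 23.8 and 6.7 in TSA, 136.7 and 338.9 in AzaC, and 162.0 and 305.3 in untreated cells (experiments 1 and 2). Its highest TSA-exposed array lay below its lowest array without TSA, and 2 of the 4 TSA-exposed arrays were under the floor. On floored signals, with 1 array of each TSA-exposed group raised to the floor, Cdc6 was 10.2-fold lower with TSA than in untreated cells (-3.35 on the log2 scale, SE 0.55, adjusted p = 0.0140 in limma, with 2 arrays in each group here and below) and 8.87-fold lower with AzaC/TSA (-3.15, SE 0.55, adjusted p = 0.0201).

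Mcm5 and Mcm2 form the gate through which the ring closes around DNA. The first Mcm5 probe set, 100156_at, had 72.7 and 137.3 in AzaC/TSA, 46.1 and 38.6 in TSA, 678.1 and 1135.1 in AzaC, and 753.7 and 925.8 in untreated cells. Mcm5 was 19.8-fold lower with TSA (-4.31, SE 0.39, adjusted p = 0.00128), which ranked 7 from the lowest of the 7994 tested probe sets, and 8.36-fold lower with AzaC/TSA (-3.06, SE 0.39, adjusted p = 0.00572). Its TSA arrays, at 46.1 and 38.6, were the lowest of its 8 arrays.
Mcm2 had 99.5 and 223.6 in AzaC/TSA, 110.6 and 163.3 in TSA, 430.9 and 1007.4 in AzaC, and 421.6 and 659.6 in untreated cells. All 4 TSA-exposed arrays were below the 4 others, and neither change passed: -1.97 with TSA (SE 0.51, adjusted p = 0.0646) and -1.82 with AzaC/TSA (SE 0.51, adjusted p = 0.104). With the experiment as a block, which compares arrays within an experiment, both passed for Mcm2 (adjusted p = 0.00224 with TSA and 0.00387 with AzaC/TSA).

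The second Mcm5 probe set, 162102_r_at, was dim and gave no such pattern, with 12.9 and 61.0 in AzaC/TSA, 16.3 and 30.6 in TSA, 65.8 and 20.6 in AzaC, and 50.4 and 44.3 in untreated cells. Arrays with and without TSA overlapped over the 4 groups, and its change with TSA, -0.93 (95% interval -2.63 to 0.76, adjusted p = 0.546), did not pass. By its name this is a probe set for which the array's selection rules were relaxed. The 2 Mcm5 probe sets disagree in size. Where 1 value per gene is needed, the probe set with the higher mean signal over the 8 arrays stands for the gene, a rule of choice that says nothing of which measures the gene better.

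Mcm3, the subunit next to Mcm5 and in yeast a contact of the loader, was measured by 2 probe sets, and these 2 probe sets gave like changes with TSA. The brighter one, 160496_s_at, whose name marks probes shared by more than a single transcript, had 35.4 and 146.6 in AzaC/TSA, 40.7 and 119.3 in TSA, 569.5 and 1031.5 in AzaC, and 398.8 and 703.8 in untreated cells. For 100062_at the signals were 61.2 and 73.8 in AzaC/TSA, 12.6 and 86.5 in TSA, 319.4 and 644.1 in AzaC, and 238.2 and 448.7 in untreated cells. With both, every TSA-exposed array lay below every array without TSA.
Against untreated cells 100062_at fell 7.86-fold with TSA on floored signals, with TSA 1 raised to the floor (-2.97, SE 0.67, adjusted p = 0.0391), a change that passed in 9 of 19 alternatives, while the change of 160496_s_at, -2.93 (SE 0.72, adjusted p = 0.0543), did not pass. With AzaC/TSA neither Mcm3 probe set passed (-2.28, SE 0.67, adjusted p = 0.115 for 100062_at and -2.88, SE 0.72, adjusted p = 0.0765 for 160496_s_at). The blocked fit moved these 3 across the threshold (adjusted p = 0.00101 for 160496_s_at with TSA, and 0.0102 for 100062_at and 0.00118 for 160496_s_at with AzaC/TSA).

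Mcm4, Mcm6 and Mcm7 form the part of the ring that unwinds DNA by itself in the test tube. Mcm4 had 44.0 and 92.8 in AzaC/TSA, 68.1 and 102.9 in TSA, 442.5 and 703.0 in AzaC, and 342.8 and 494.2 in untreated cells. It fell 4.92-fold with TSA (-2.30, SE 0.45, adjusted p = 0.0254) and 6.44-fold with AzaC/TSA (-2.69, SE 0.45, adjusted p = 0.0171), with the 2 sets of arrays again apart.
Mcm7 had 205.3 and 169.1 in AzaC/TSA, 241.1 and 134.4 in TSA, 730.8 and 997.5 in AzaC, and 638.9 and 856.9 in untreated cells. It fell 4.11-fold with TSA (-2.04, SE 0.35, adjusted p = 0.0164) and 3.97-fold with AzaC/TSA (-1.99, SE 0.35, adjusted p = 0.0201). Within experiments the Mcm7 change with TSA was -1.41 in experiment 1 and -2.67 in experiment 2.
Mcm6 was dim on all arrays, with 9.5 and 1.9 in AzaC/TSA, 2.6 and 22.2 in TSA, 21.5 and 26.3 in AzaC, and 26.2 and 25.3 in untreated cells. All 4 arrays without TSA were just above the floor and 3 of the 4 with TSA were under it. No fold is given for Mcm6, whose signal is too near the floor to measure one.

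**Figure D1:**
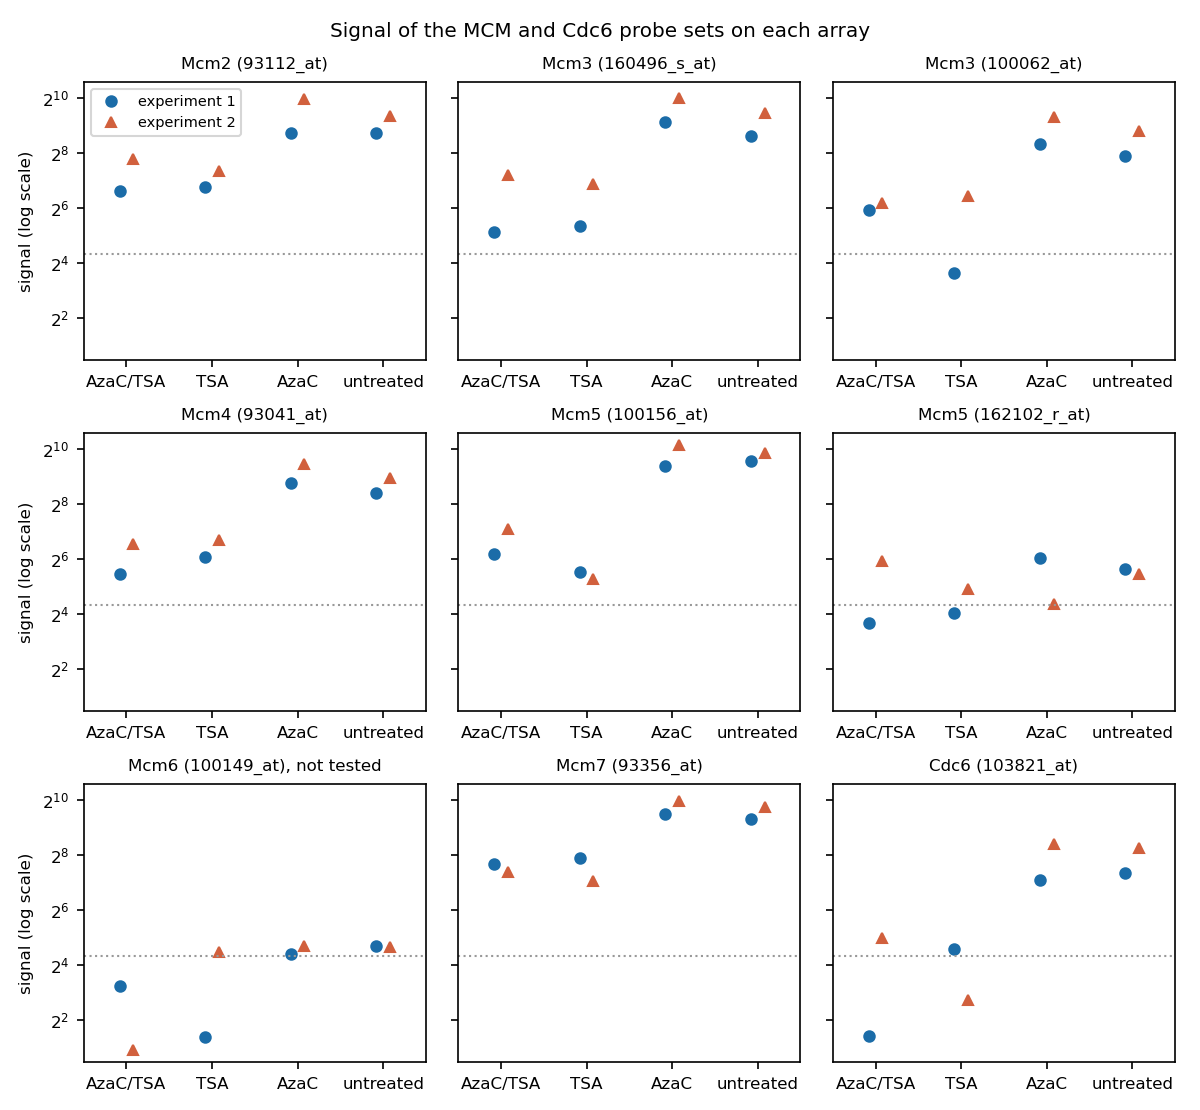
Signal of each of the 9 probe sets on each of the 8 arrays, on a log axis of base 2, by group, with circles for experiment 1, triangles for experiment 2 and a dotted line at the floor of 20. Except for the dim probe sets of Mcm5 (162102_r_at) and Mcm6, the arrays of TSA-exposed cells lie below those without TSA.

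TSA alone was set against no treatment for the effect of histone deacetylase inhibition on licensing genes. Of 8 tested member probe sets 5 fell with TSA and 0 rose, and they cover 5 genes: Mcm3 (by 1 of its 2 probe sets), Mcm4, Mcm5, Mcm7 and Cdc6. Over the 7994 tested probe sets 2.93% fell and 2.1% rose, 5.03% in all. The median change of the members was -2.61, against 0.02 over all tested, and the 8 changes ran from -4.31 to -0.93, each below 0 within experiment 1 and within experiment 2. Over all tested probe sets 49.1% of the changes were below 0, and the share below 0 within both experiments was not counted. In the blocked fit 7 of 8 fell, against 6.55% over all tested. Leaving out an array lowered the number that fell to 2 without TSA 1, 2 without TSA 2, 2 without untreated 1 and 1 without untreated 2; Mcm5 (100156_at) passed in each of the 19 alternatives.

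AzaC/TSA was set against untreated cells for the effect of both inhibitors together. The probe sets of Mcm4, Mcm5 (100156_at), Mcm7 and Cdc6 fell, 4 of 8, and 0 rose, against 1.83% lower and 1.29% higher over all tested (3.11% in all). The median of the members was -2.48 and that over all tested -0.002. With the experiment as a block 7 of 8 fell (4.95% over all tested). The count was 1 without AzaC/TSA 1, 1 without untreated 1 and 0 without untreated 2. This comparison shares its untreated arrays with that of TSA alone, so that the 2 are not independent.

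When TSA was added to AzaC, with AzaC alone as the base, 5 of 8 probe sets fell and 0 rose, against 1.68% and 1.11% over all tested (2.79% in all). They were Mcm4 (-3.13, SE 0.45, adjusted p = 0.00964), Mcm5 100156_at (-3.13, SE 0.39, adjusted p = 0.00541), Mcm3 160496_s_at (-3.41, SE 0.72, adjusted p = 0.0449), Cdc6 (-3.10, SE 0.55, adjusted p = 0.0255) and Mcm7 (-2.20, SE 0.35, adjusted p = 0.0150). Mcm2 (-2.14, SE 0.51, adjusted p = 0.0652) and Mcm3 100062_at (-2.75, SE 0.67, adjusted p = 0.0675) did not pass, and passed in the blocked fit (adjusted p = 0.00172 and 0.00417). Without AzaC 2 the count was 0, without AzaC/TSA 1 it was 1, and without AzaC/TSA 2 or AzaC 1 it was 3.

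Averaged over both backgrounds, 4 TSA-exposed arrays against 4 without TSA, 7 of the 8 probe sets and all 6 tested genes fell, where 7.56% of all tested probe sets fell and 6.94% rose (14.5% in all). The changes were -3.72 for Mcm5 100156_at (SE 0.28, adjusted p = 0.000153), -3.23 for Cdc6 (SE 0.39, adjusted p = 0.00142), -3.17 for Mcm3 160496_s_at (SE 0.51, adjusted p = 0.00484) and -2.86 for Mcm3 100062_at (SE 0.47, adjusted p = 0.00537). Cdc6 and Mcm3 100062_at had TSA-exposed arrays under the floor, so that their place in the order depends on it. Mcm4 (-2.71, SE 0.32, adjusted p = 0.00120), Mcm7 (-2.12, SE 0.25, adjusted p = 0.00120) and Mcm2 (-2.06, SE 0.36, adjusted p = 0.00763) also fell. In 7 of the 8 probe sets all 4 TSA-exposed arrays lay below all 4 others, which held for 12.6% of the tested probe sets. The count was 7 whichever array was left out.

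**Figure D2:**
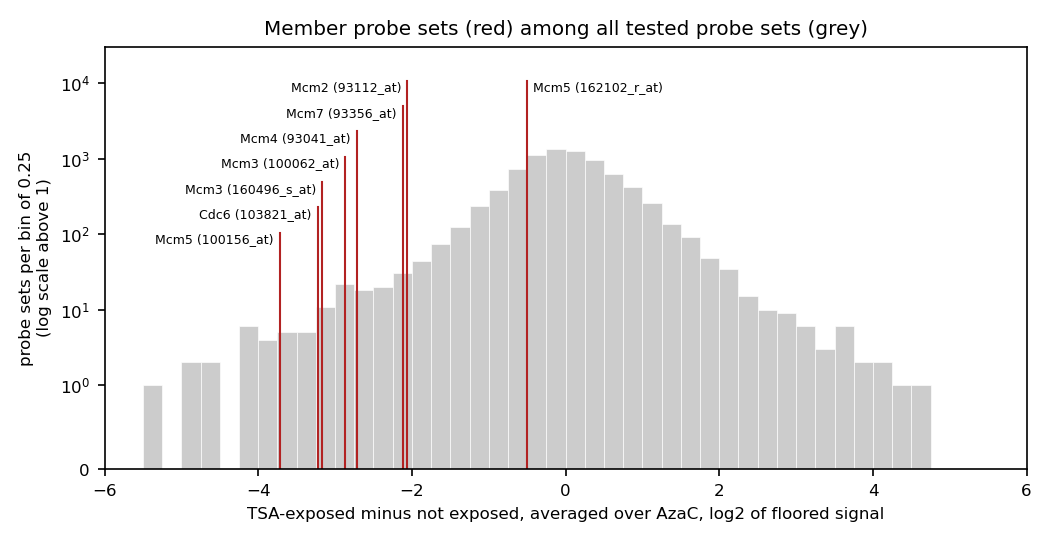
Number of tested probe sets by their log2 change with TSA averaged over AzaC, in bins of 0.25 on a vertical axis that is logarithmic above 1 (grey), with the 8 tested member probe sets as red lines whose heights carry no value. Apart from Mcm5 162102_r_at at -0.50, the members lie between -3.72 and -2.06, in the left tail.

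Markers of cycling cells were lower in the same comparisons: 9 of 9 tested, among them Mki67 and Top2a, fell with TSA (median -3.90) and 9 of 9 with AzaC/TSA (median -3.90). Over all tested probe sets 2.93% fell with TSA and 1.83% with AzaC/TSA. The median with TSA is the value of Aurka, which had 5.3 and 32.1 in TSA, so that it depends on the floor. Mki67 had 25.5 and 17.8 in AzaC/TSA, 1.1 and 28.4 in TSA, 787.0 and 808.4 in AzaC, and 883.0 and 1225.9 in untreated cells, and Top2a had 5.3 and 23.9, 8.7 and 6.5, 513.1 and 801.4, and 470.9 and 866.4 in the same order. Of 7 tested neuronal markers 3 rose with TSA (Mapt, Snap25 and Syp) and 3 with AzaC/TSA, where 2.1% and 1.29% of all tested probe sets rose. The other 4 did not pass with TSA or AzaC/TSA: Tubb3 (-0.81 and -0.77), Map2 (-0.27 and -0.19), Dcx (0.39 and 0.48) and Stmn2 (1.28 and 1.49). Averaged over AzaC, 4 neuronal markers rose and Tubb3 fell (-0.82, adjusted p = 0.0406 in limma). Cd68 rose as 1 of 2 tested markers of microglia and macrophages. Of 9 tested stem and progenitor markers Fabp7 alone fell with TSA, and 0 passed with AzaC/TSA. The summed signal of the 11 on the array was 6443 to 14225 on TSA-exposed arrays, against 15279 to 17798 on the others. Fabp7 itself had 1063 to 5499 on TSA-exposed arrays, against 7830 to 10920 on the others, and weighs heavily in this sum. Sox2 (2391 to 4830 against 3120 to 3751) and Nes (1049 to 2921 against 2053 to 3003) overlapped. S100b was 1 of 3 astrocyte markers and fell with TSA. Of the tested markers of oligodendrocytes (3), blood (3), endothelium and pericytes (1) and fibroblasts (3), 0 passed with TSA or AzaC/TSA. Averaged over AzaC, Dcn of fibroblasts rose (1.41 on floored signals, adjusted p = 0.0455 in limma). The part of the share of cycling cells in the members' changes was not tested.

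AzaC alone was compared with untreated cells for the effect of DNA methyltransferase inhibition. No member probe set passed, and by limma 0 of 7994 probe sets did in either direction, with 175 at an unadjusted p below 0.05, none of them a member. The members' changes ran from -0.36 (Mcm5 162102_r_at) to 0.53 (Mcm3 160496_s_at, 95% interval -1.10 to 2.17). Probe sets of Mcm2, Mcm3, Mcm4 and Mcm7 were above untreated in both experiments, by 0.03 and 0.61 for Mcm2, 0.37 and 0.51 for Mcm4, and 0.19 and 0.22 for Mcm7, and for each of them the AzaC and untreated arrays overlapped. Over all tested probe sets 46.6% of the changes were below 0, and the share above untreated in both experiments was not counted. Cdc6 changed by -0.05 (95% interval -1.30 to 1.21) and Mcm5 100156_at by 0.07 (-0.82 to 0.96).

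**Figure D3:**
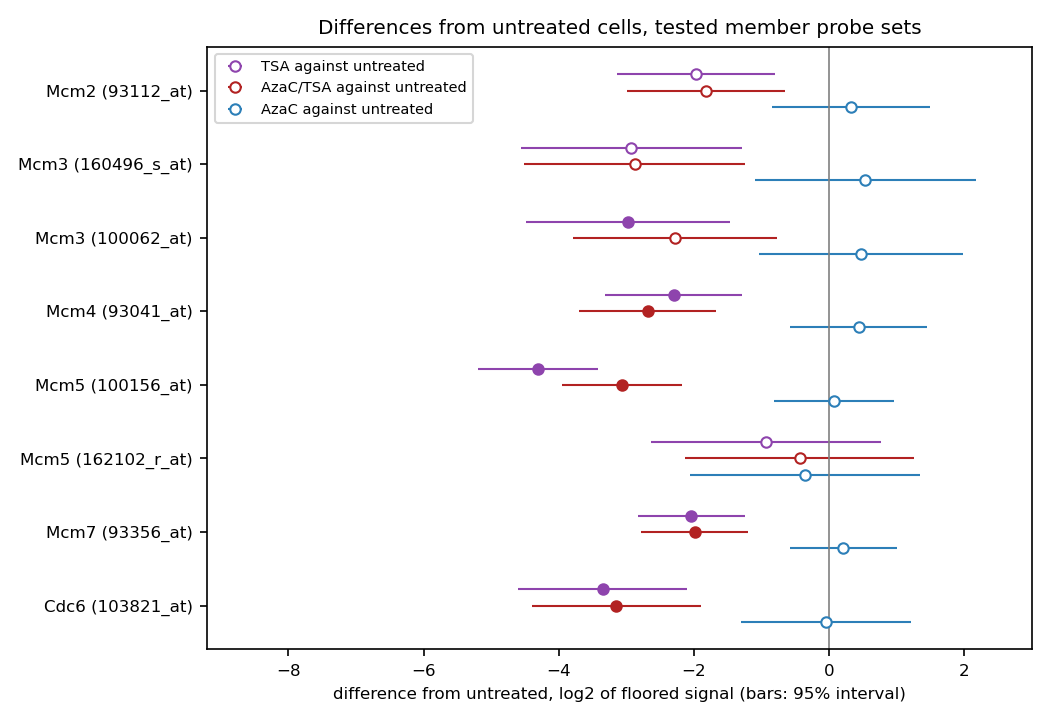
Difference from untreated cells on the log2 scale of floored signals for the 8 tested probe sets with TSA (purple), AzaC/TSA (red) and AzaC (blue), with 95% intervals from limma; filled points passed at an adjusted p below 0.05. The AzaC points lie between -0.36 and 0.53, and the TSA and AzaC/TSA points lie to the left of 0.

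Addition of AzaC to TSA was tested against TSA alone. Here too 0 of 7994 probe sets passed in limma, with 185 at an unadjusted p below 0.05. Mcm5 100156_at was among the 185, higher with AzaC/TSA in both experiments (by 0.66 and 1.83, with 72.7 and 137.3 in AzaC/TSA, against 46.1 and 38.6 in TSA; mean 1.24, SE 0.39, 95% interval 0.35 to 2.13, unadjusted p = 0.0115, adjusted p = 1). Mcm2, Mcm7 and Cdc6 differed by 0.15, 0.05 and 0.20, each with opposite signs in the 2 experiments. The interaction, which asks whether AzaC changes the response to TSA, passed for 0 of 7994 probe sets (142 at an unadjusted p below 0.05) and ran among the members from -0.83 (Mcm4, SE 0.63) to 1.17 (Mcm5 100156_at, SE 0.56, unadjusted p = 0.0641).

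Experiment 2 was compared with experiment 1, with each group counted once in each. By limma 2 of 8 probe sets passed, both higher in experiment 2: Mcm3 160496_s_at (1.32, SE 0.25, adjusted p = 0.0198) and Mcm2 (0.90, SE 0.19, adjusted p = 0.0337). Over all tested probe sets 1.58% were higher in experiment 2 and 2.63% lower (4.2% in all). Mcm2 had 223.6, 163.3, 1007.4 and 659.6 in experiment 2 and 99.5, 110.6, 430.9 and 421.6 in experiment 1, for AzaC/TSA, TSA, AzaC and untreated cells. Mcm3 100062_at (1.08, adjusted p = 0.0765), Mcm4 (0.72, adjusted p = 0.0801), Cdc6 (0.66, adjusted p = 0.288), Mcm5 100156_at (0.43, adjusted p = 0.331) and Mcm7 (-0.06, adjusted p = 0.914) did not pass. Mcm7 was lower in experiment 2 with TSA (169.1 against 205.3 in AzaC/TSA and 134.4 against 241.1 in TSA) and higher there without it (997.5 against 730.8 in AzaC and 856.9 against 638.9 in untreated cells). Neither call was kept in every fit that left out an array: the count was 1 without untreated 1, 1 without untreated 2 and 0 without each of the 6 others.

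Other genes of DNA replication, 1 probe set per gene, were described in 5 lists. Over all tested probe sets 1.83% fell with AzaC/TSA and 2.93% with TSA, and 4.95% and 6.55% in the blocked fit. Among genes of origin recognition and loading, 2 of 7 tested fell with TSA and 2 with AzaC/TSA, and 0 rose. These were Orc6, a small subunit of the recognition complex (177.5 and 218.4 in AzaC/TSA, 192.6 and 236.6 in TSA, and 574.9 and 756.6 in untreated cells; -1.74 with AzaC/TSA and -1.63 with TSA), and Cdt1, the partner of Cdc6 in loading (-1.59 with AzaC/TSA and -1.74 with TSA). Orc1 (-1.06 on floored signals and -0.44), Orc2 (-1.04 on floored signals and -0.33), Orc4 (0.38 and 0.68) and Orc5 (-0.37 and -0.55) did not pass with AzaC/TSA or TSA. The medians of the list were -1.04 with AzaC/TSA and -0.44 with TSA. The first is the value of Orc2, which depends on the floor. Orc2 had 10.2 and 91.7 in AzaC/TSA, and 75.5 and 102.1 in untreated cells.

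Of 8 tested origin firing kinases and cyclins, Ccna2 (cyclin A2, which partners Cdk2 in S phase) fell, with changes of -2.59 in AzaC/TSA and -3.24 in TSA. It also stands among the cycling cell markers above. In the blocked fit 2 of the 8 fell and 1 rose with AzaC/TSA, where 4.95% of all tested probe sets fell and 4.37% rose. Cdc7, the MCM kinase (-0.92 and -0.93), Cdk2 (-1.10 and -0.39), Ccne1 (-0.12 and -0.22) and Ccne2 (-1.26 on floored signals and -1.38, at least) did not pass. In the list of partners of the helicase and firing factors, Mcm10 (-2.27 on floored signals with AzaC/TSA and -2.36, at least, with TSA) and Topbp1 (-1.77 and -2.01) fell in both comparisons. Cdc45, which binds the ring to form the moving helicase, had 15.9 and 13.1 in AzaC/TSA, 11.9 and 86.0 in TSA, and 186.6 and 287.5 in untreated cells. It fell with AzaC/TSA (-3.53, at least, adjusted p = 0.0251) and did not pass with TSA (-2.48 on floored signals, adjusted p = 0.0673), and Tipin of the fork protection complex gave -1.97 (adjusted p = 0.0429) and -1.70 (adjusted p = 0.0548). Timeless (-1.29 and -1.04) and Wdhd1 (-0.82 and -0.50) did not pass. In all, 4 of 6 of this list fell with AzaC/TSA (median -1.87) and 2 of 6 with TSA (median -1.86), and 5 and 4 in the blocked fit.

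Among 19 replisome genes, 2 fell with AzaC/TSA, Lig1 (a DNA ligase of the replication fork, -3.40) and Pola2 (a subunit of polymerase alpha, -1.99), and 2 with TSA, Lig1 (-2.34) and Rfc4 (of the clamp loader, -1.81), with medians of -1.44 and -1.23. With the experiment as a block 10 and 7 fell. Pola1 (-1.36 and -1.23), Prim1 (-1.84 and -1.55), Prim2 (-2.13 and -1.24) and Pold1 (-2.00 and -0.77) did not pass in these comparisons. Of 9 E2F and pocket protein genes, E2f8, a repressor of the E2F family (-1.89 and -1.77), and Rbl1, the pocket protein p107 (-1.64 and -1.58), fell in both comparisons, and with the block 2 fell with AzaC/TSA and 4 with TSA. E2f1 (-0.48 and -0.09), E2f5 (0.02 and 0.03), Tfdp1 (-1.36 and -1.61) and Rb1 (0.94 and 1.05) did not pass. With AzaC alone 0 genes of the 5 lists passed. Averaged over AzaC, where the 4 TSA-exposed arrays were set against the 4 others, 2 of 7 genes of recognition and loading, 2 of 8 kinases and cyclins, 5 of 6 helicase partners, 13 of 19 replisome genes and 4 of 9 E2F and pocket protein genes fell. Over all tested probe sets 7.56% fell in this comparison, more than in those against untreated cells. Pola1 (-1.37, adjusted p = 0.00660), Prim1 (-1.94, adjusted p = 0.0130), Prim2 (-1.80, adjusted p = 0.0300) and Pold1 (-1.61, adjusted p = 0.0148) were among those 13, and Rb1, the retinoblastoma pocket protein, rose (1.14, adjusted p = 0.0225). The 6 member genes tested had medians of -2.78 with AzaC/TSA and -2.61 with TSA; that the lists differ from the members was not tested.

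**Figure D4:**
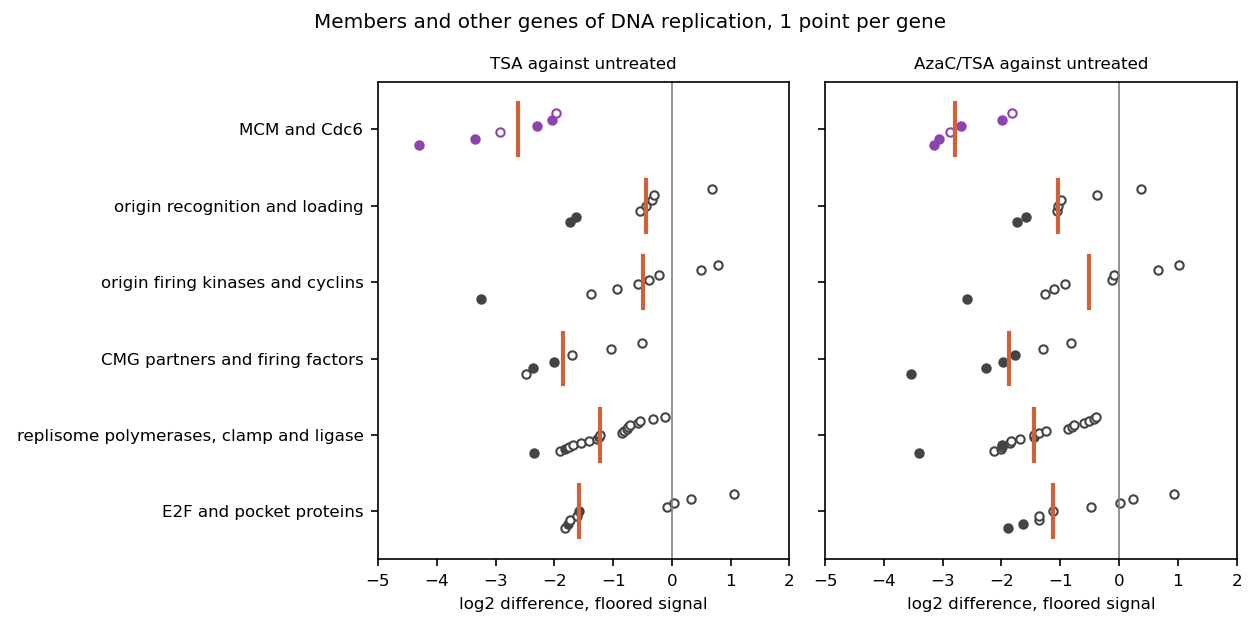
Log2 difference from untreated cells for TSA (left) and AzaC/TSA (right), 1 point per tested gene, for the 6 member genes (purple) and 5 lists of replication genes (dark grey); filled points passed at an adjusted p below 0.05, and vertical orange bars are medians. The member medians are -2.61 and -2.78.

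The genes whose pattern was most like that of the members were ranked by Pearson's r over the 8 arrays with the mean log2 profile of the 6 tested member genes. Among 6010 other genes the 5 highest were Ccnf (cyclin F, 0.997), Aurka (aurora kinase A of mitosis, 0.990), Lsm3 (of RNA processing, 0.990), Pak2 (a protein kinase, 0.990) and Nop56 (of ribosome assembly, 0.990). Ccnf had 71.9 and 125.9 in AzaC/TSA, 77.8 and 100.9 in TSA, 339.0 and 530.7 in AzaC, and 362.2 and 466.1 in untreated cells. The 8 arrays fall into those with and without TSA, and r is a description of points that share this split; 311 of the 6010 genes (5.17%) had r above 0.9.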

How the data were processed

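The authors deposited 1 table of intensity values, linear and with 1 value per probe set and array; each array has the same 2%-trimmed mean (200.1), and the software is not given in the sources used here. Probe sets were named from the array annotation (10855 with 1 symbol, 396 with several, 1237 with none; 10839 identifiers matched RefSeq). The 66 control probe sets were left out, signals were floored at 20 and log2 was taken. The 7994 probe sets (64.4%) with a signal of 50 on at least 2 arrays entered limma 3.58.1 (R 4.3.3, intensity trend, 1 mean per group, all 8 arrays), two-sided, with Benjamini-Hochberg adjustment over all 7994. Residual degrees of freedom were 4 and prior ones 4.93, and the median SE of a change between groups was 0.41. Precision is limited by the number of arrays. The comparison of experiments also held the group means.

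The titles give each array's experiment, which pairs the groups; deviations from group means correlated between groups with r from 0.203 to 0.411 over 6 pairs, and the experiment as a block was an alternative. The forebrains were separately isolated and the 2 experiments independent, as given at the start. How forebrains were divided among the groups and experiments is not given in the sources used here, so p-values measure the spread between these arrays. The members and lists were chosen with earlier results of these data known. Members are named in full, list genes where they passed against untreated plus up to 4 that did not, and like patterns by the 5 highest r. On simulated data with 200 of 7994 probe sets changed, TSA against untreated recovered 5.37% of log2 changes of 1, 64.6% of 2 and 92.3% of 4, with 5.6% of calls false. The simulated noise was independent between arrays, without an effect of the experiment. Changes were placed only in probe sets whose mean untreated signal was above 4 times the floor, so that recovery in dimmer ones was not measured. Alternatives changed the scaling, floor, filter, variance model, arrays in the fit and the block, and left out each array.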

Additional observations from a re-analysis of the deposited data

Results flagged for a closer look

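Mcm4 differed with AzaC in opposite directions without and with TSA in both experiments, and neither AzaC difference passed. In both comparisons the arrays of the groups compared overlapped, and Mcm4 was flagged by these signs alone. How often such signs occur over all tested probe sets was not counted, so that the flag sets Mcm4 apart from no other gene. Without TSA it was higher with AzaC than untreated, by 0.37 in experiment 1 and 0.51 in experiment 2 on the log2 scale, and with TSA it was lower in AzaC/TSA than in TSA, by -0.63 and -0.15. The test of this difference, the AzaC by TSA interaction, gave -0.83 (SE 0.63, limma, adjusted p = 1.0) and did not pass.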

How the results depend on the processing

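Counts of member probe sets past the threshold depended on the processing. Without the filter, which brings all non-control probe sets into the test, the count was 1 for TSA against untreated (5 as reported), 0 for AzaC/TSA against untreated (4), 0 for AzaC/TSA against AzaC (5), 4 for TSA exposure averaged over AzaC (7) and 0 for the experiments (2). Without the intensity trend it was 3 for TSA against untreated and 0 for the experiments. With only the groups compared it was 3 for TSA, 1 for AzaC/TSA against untreated and 0 for AzaC/TSA against AzaC, and with a floor of 5 it was 3 for the last. With the replicate block it was 7 for AzaC/TSA against untreated; it turned no call of a member between groups into a miss. With 1 array left out, and its group's remaining array assumed to vary like the others, the counts ran from 1 to 5 for TSA, 0 to 5 for AzaC/TSA against untreated, 0 to 6 for AzaC/TSA against AzaC, 7 to 7 for the average over AzaC and 0 to 1 for the experiments. The cause of these shifts was not tested. Of single member changes under all alternatives, 1062 stayed on their side of the threshold, 97 lost and 17 gained a call, and 0 of those called changed sign. The 1062 include changes that were not called as reported, and only called ones could lose a call. The number that stayed therefore does not measure how stable the calls were. Over all tested probe sets the calls ran from 52 to 971 for TSA against untreated (402 as reported), 14 to 745 for AzaC/TSA against untreated (249), 45 to 745 for AzaC/TSA against AzaC (223), 576 to 1910 for the average over AzaC (1159), 0 to 392 for the experiments (336), and 0 to 13 for AzaC against untreated, 0 to 11 for AzaC/TSA against TSA and 0 to 11 for the interaction (0 each). No member passed in those last 3 comparisons under any alternative. Signals near the floor limit Cdc6, Mcm5 162102_r_at, Mcm6 and Mcm3 100062_at, whose change with TSA was -3.31 with a floor of 5 (adjusted p = 0.0519), -2.97 with that of 20 and -2.47 with that of 40.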
